A study of Mus musculus with 6 samples.

Results

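The 9 genes described here encode complement components and regulators: the C1q chains C1qa, C1qb and C1qc, the proteins C2, C4b, C3 and Cfb, the inhibitor Serping1 and the receptor C3ar1. They were taken from the gene symbols of the deposited table, in which each symbol matched 1 of 49315 genes. All 9 passed the filter on low counts, along with 15847 genes in all.

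RNA came from gastrocnemius muscles of male C57BL6J mice. Each muscle had received an AAV9 vector at 5 months of age and was collected 5 months later, so that the control animals carried a vector too. In the CAAHR group the vector was AAV9-HSA-CAAHR (replicates 31, 34 and 36), a mouse AHR without its ligand-binding domain that is active with no ligand. In the GFP group it was AAV9-HSA-GFP (replicates 42, 43 and 46), which encodes the fluorescent protein ZsGreen1. Both transgenes were driven by the human skeletal actin promoter, which is active in muscle fibres, so the immune and connective tissue cells of the muscle were not the intended site of expression. Uninjected muscle was not analysed here, and each difference below is one between 2 vectors. By qPCR, the paper found selected immune genes not to be lower in CAAHR muscles than in muscles of naive mice without AAV. The paper reads this as a local immune response to the GFP vector. Whether it extends to the complement genes was not tested here, so lower below means lower than in GFP muscles.

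Complement is a cascade of proteases and binding proteins that coats targets and recruits leukocytes. C1q, assembled from 3 related chains, recognises antibodies and other ligands and activates the proteases C1r and C1s, which cut C4 and C2 to form the convertase that cleaves C3. Factor B forms the corresponding convertase of the alternative pathway, C1 inhibitor (Serping1) blocks C1r and C1s, and C3ar1 is the receptor for the small fragment released from C3. In many tissues C1q is made mainly by macrophages, whereas C3, C4 and C1 inhibitor are also made by fibroblasts and other stromal cells, and transcription of several of these genes responds to interferon.

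Libraries held from 43432994 to 58825752 counts. The 3 CAAHR muscles carried the mark of their vector: Cyp1a1, the classical AHR target, lay between 1231 and 1680 CPM in CAAHR muscles and between 5.85 and 7.74 CPM in GFP muscles, and Ahr between 9.97 and 22.8 against 1.87 and 2.55 CPM. CPM denotes a gene's counts scaled to a common library total, here with TMM factors that correct for differences in library composition. Fibre transcripts dominated all 6 libraries, with 8 fibre markers summing to between 128280 and 171670 CPM in CAAHR and between 206530 and 207250 CPM in GFP muscles, and 4 of these 8 were lower in CAAHR muscles at an adjusted p under 0.05, beside 4.57% of all tested genes.

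Complement transcripts were lower in CAAHR muscles. C4b, C3, C2 and Cfb were between 2.47-fold and 4.82-fold lower than in GFP muscles. They were the 4 of 9 members with an adjusted p under 0.05 in edgeR's quasi-likelihood test, adjusted by the Benjamini-Hochberg method over all tested genes. Across all tested genes 4.57% were called lower and 3.04% higher, and no member was called higher. All 4 also changed more than 2-fold, which 2.51% of tested genes did while called lower. The log2 fold change was negative for 9 of 9 members, with a median of -1.26, and 8 of them had an unadjusted p under 0.05. Over all 15847 tested genes it was negative for 7735, with a median of 0.01, and 3781 had an unadjusted p under 0.05. For 7 members every CAAHR library lay below every GFP library, as it did for 14.9% of tested genes. The count of 4 was 2 without CAAHR replicate 31, GFP replicate 43 or GFP replicate 46, and C3 and C4b were the 2 members called in each of the 14 alternative analyses. The median of the 9 log2 fold changes was -0.83 without GFP replicate 43.

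**Figure D1:**
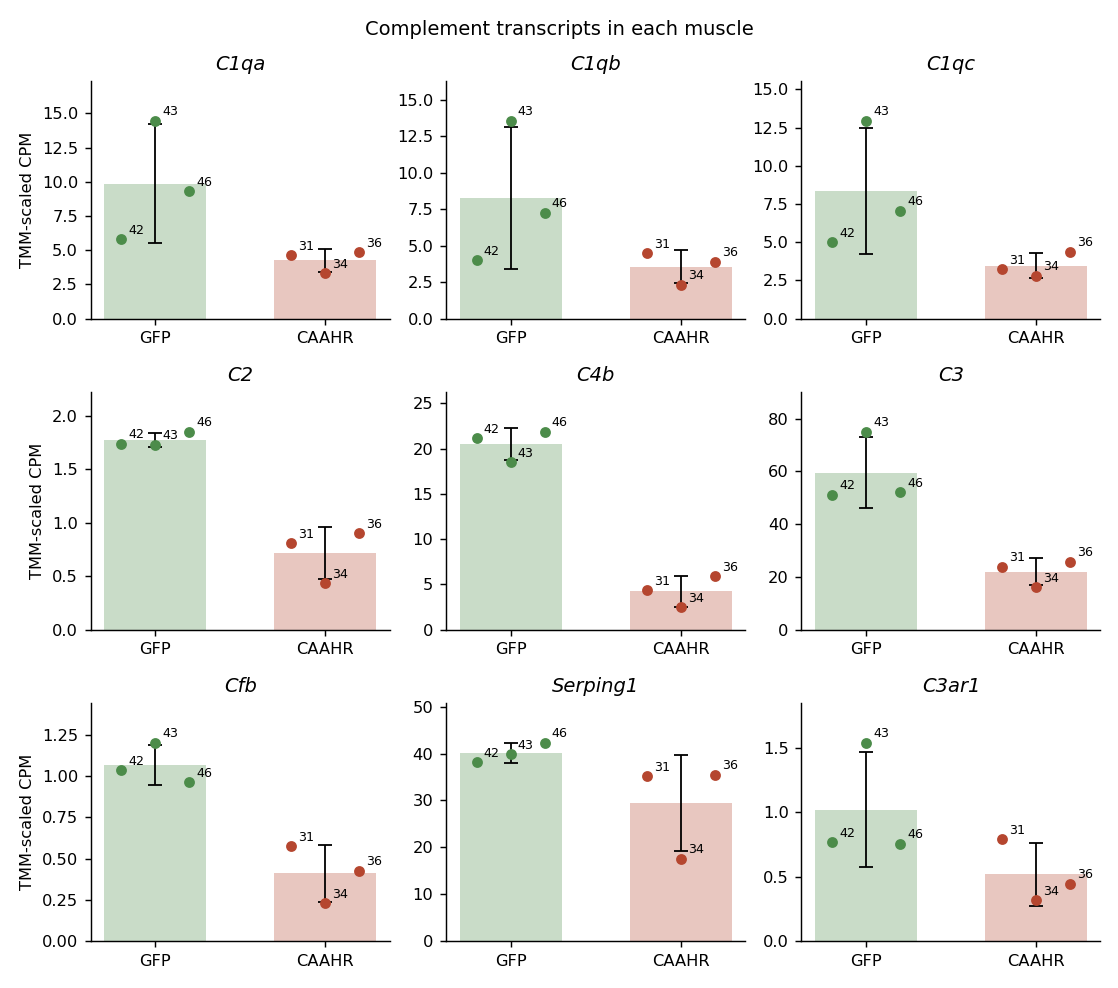
TMM-scaled CPM of the 9 complement genes in each muscle. Points are libraries with their replicate numbers, bars are group means and error bars are SD (n = 3 per group). CAAHR replicate 34 is the lowest library in all 9 panels, and the groups overlap for C1qb and C3ar1.

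C4b, which encodes the form of C4 cut during classical and lectin activation, differed most. It was at 21.2, 18.5 and 21.9 CPM in GFP replicates 42, 43 and 46 and at 4.35, 2.5 and 5.91 CPM in CAAHR replicates 31, 34 and 36. The groups were far apart, and the GFP libraries were close to each other. Means were 4.25 ± 1.70 CPM (SD, n = 3) in CAAHR and 20.5 ± 1.76 CPM in GFP, a log2 fold change of -2.27 ± 0.27 (SE), or 4.82-fold lower (edgeR, adjusted p 0.00371). The gene spans chr17:34728380-34743882 (GRCm38, minus strand). Its paralogue C4a, a near copy, shares 8.26% of the 150-base windows of the C4b transcript. A single read in such a window matches both genes, and whether the other read of its pair separates them was not tested. C4a had between 7 and 18 counts per library, whereas C4b had between 143 and 1158.

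C3 is the protein on which all pathways converge. Its levels were 51.2, 75.0 and 52.2 CPM in GFP replicates 42, 43 and 46 and 23.9, 16.1 and 25.7 CPM in CAAHR replicates 31, 34 and 36. No CAAHR library was above 25.7 CPM and no GFP library was below 51.2 CPM, the means being 21.9 ± 5.1 CPM (SD, n = 3) and 59.5 ± 13.5 CPM. The log2 fold change was -1.44 ± 0.21 (SE), or 2.71-fold lower (edgeR, adjusted p 0.00759). C3 lies at chr17:57203970-57228136 (GRCm38, minus strand).

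The 250 bases before the start of C3 (RefSeq, GRCm38.p6, chr17:57228137-57228386, minus strand, written 5′ to 3′ along the gene) are shown because C3 was one of the 2 members called in every analysis. They were searched on both strands for the AHR core GCGTG, the C/EBP-type motif TTGCNNAA, the STAT-type motif TTCNNNGAA and the Ets-type motif GAGGAA, where N is any base. Capitals mark the matches.
C3: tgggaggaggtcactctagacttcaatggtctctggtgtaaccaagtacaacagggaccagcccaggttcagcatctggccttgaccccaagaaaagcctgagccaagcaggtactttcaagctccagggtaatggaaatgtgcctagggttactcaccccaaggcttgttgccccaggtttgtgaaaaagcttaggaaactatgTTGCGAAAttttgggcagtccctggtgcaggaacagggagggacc
The window held 1 match, a C/EBP-type motif beginning 45 bases before the start, and such a motif was in 9.56% of 32851 windows of the same length. Windows were matched for 4 members, C3, C1qb, C1qc and C3ar1, and the AHR core was in none of these 4 windows, beside 28.2% of all windows. A match or its lack in 250 bases is a description of the letters only.

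C2 and Cfb, the proteases that form the classical and alternative C3 convertases, were present at low levels. C2 was at 1.74, 1.73 and 1.85 CPM in GFP replicates 42, 43 and 46 and at 0.811, 0.438 and 0.902 CPM in CAAHR replicates 31, 34 and 36. Its log2 fold change was -1.30 ± 0.29 (SE), or 2.47-fold lower (edgeR, adjusted p 0.0262). Neither gene had overlapping groups. Cfb was at 1.04, 1.2 and 0.963 CPM in the GFP libraries and at 0.573, 0.228 and 0.427 CPM in the CAAHR libraries. The log2 fold change of Cfb was -1.38 ± 0.36 (SE), or 2.61-fold lower (edgeR, adjusted p 0.0467). The Cfb values rest on between 13 and 51 counts per library, and those of C2 on between 25 and 98.

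The calls of C2 and Cfb were the less stable ones. C2 lost its call without CAAHR replicate 31 (edgeR, adjusted p 0.0638), GFP replicate 42 (0.0631), GFP replicate 43 (0.0623) or GFP replicate 46 (0.0899), with a range from 0.000469 to 0.0899 over all 14 alternatives. Cfb did not pass when any of the 6 libraries was left out, at adjusted p-values of 0.0505 without CAAHR replicate 31, 0.0587 without CAAHR replicate 34, 0.121 without CAAHR replicate 36, 0.0988 without GFP replicate 42, 0.126 without GFP replicate 43 and 0.104 without GFP replicate 46. It also lost it with library size only (0.0569), and its range over the alternatives was from 0.0053 to 0.126. The log2 fold change stayed between -1.70 and -1.10 for Cfb and between -1.52 and -1.06 for C2.

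The exons of these 2 genes are shared in part with another annotated gene. C2 (chr17:34862604-34898265) and Cfb (chr17:34856374-34862518) are neighbours on the minus strand (GRCm38), and the annotated gene Gm20547 runs through both. It shares 42.8% of the exon bases of C2 and 79.5% of those of Cfb. Gm20547 had 0 counts in all 6 libraries. Each of its exons lies within exons of C2 or Cfb, so the 0 does not show whether Gm20547 is transcribed. Only 2055 exon bases of C2 and 579 of Cfb belong to no other gene. Counting is described as the summing of unique hits. Counting reads in shared exons for each gene they touch would have given Gm20547 counts as well. Whether such reads were dropped was not stated, so the levels of both genes may be too low by an unknown amount.

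**Figure D2:**
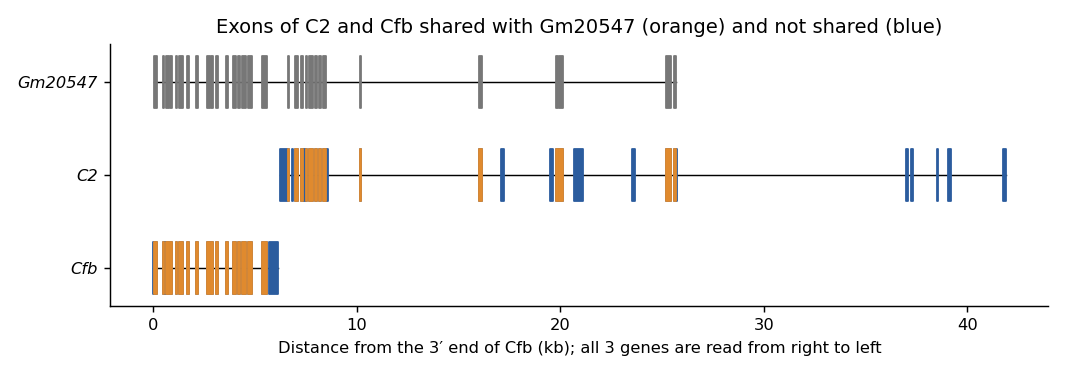
Exons of C2, Cfb and Gm20547 as blocks, by distance in kb from the 3′ end of Cfb. Exon parts of C2 and Cfb shared with Gm20547 are orange and the others blue, and orange covers most of Cfb.

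C1qa, C1qb and C1qc, the chains of the recognition protein, were each at a lower mean in CAAHR muscles, but none passed the test over all genes. C1qa was at 5.82, 14.5 and 9.33 CPM in GFP replicates 42, 43 and 46 and at 4.63, 3.33 and 4.84 CPM in CAAHR replicates 31, 34 and 36. C1qc was at 5.01, 13.0 and 7.06 CPM against 3.22, 2.82 and 4.38 CPM. For both, the lowest GFP library lay just above the highest CAAHR library. C1qb was at 4.02, 13.6 and 7.25 CPM against 4.47, 2.33 and 3.90 CPM, and GFP replicate 42 fell within the CAAHR range.

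Log2 fold changes of the chains were alike, at -1.21 ± 0.32 (SE) for C1qa (edgeR, adjusted p 0.063), -1.21 ± 0.47 for C1qb (edgeR, adjusted p 0.189) and -1.26 ± 0.35 for C1qc (edgeR, adjusted p 0.0757). Their 95% intervals reached from -1.95 to -0.46, from -2.36 to -0.07 and from -2.08 to -0.43. GFP libraries differed among themselves more than CAAHR libraries, with SDs of 4.35, 4.85 and 4.12 CPM in GFP for C1qa, C1qb and C1qc against 0.82, 1.11 and 0.811 CPM. Without GFP replicate 42, C1qa (adjusted p 0.012) and C1qc (adjusted p 0.0276) passed the edgeR test. Without GFP replicate 43 the log2 fold changes were -0.83, -0.66 and -0.80 for C1qa, C1qb and C1qc. Over all alternatives adjusted p-values ran from 4.82e-09 to 0.154 for C1qa, from 0.0588 to 0.427 for C1qb and from 3.67e-07 to 0.187 for C1qc. The 2 smallest came from the analysis without a filter on low counts. With the usual filter DESeq2 also called C1qa (adjusted p 0.000553) and C1qc (0.000886). C1qa passed as well with upper quartile scaling (edgeR, adjusted p 0.0496) and without robust estimation (edgeR, adjusted p 0.045). C1qa passed in 5 of 14 alternatives, C1qc in 3 and C1qb in 0.

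The 3 C1q genes sit within 18675 bases of chromosome 4 (C1qb at 136880129 to 136886187, C1qc at 136889804 to 136893065 and C1qa at 136895917 to 136898803, GRCm38), all on the minus strand. The upstream sequence of C1qb is shown as the example from this cluster (RefSeq, GRCm38.p6, chr4:136886201-136886450, minus strand, 5′ to 3′), with the same motifs searched.
C1qb: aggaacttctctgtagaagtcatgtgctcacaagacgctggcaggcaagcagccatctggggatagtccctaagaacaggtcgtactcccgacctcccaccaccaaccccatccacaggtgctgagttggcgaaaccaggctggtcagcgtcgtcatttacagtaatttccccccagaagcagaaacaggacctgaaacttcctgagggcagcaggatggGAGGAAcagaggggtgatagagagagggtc
The capitals are an Ets-type motif that begins 30 bases before the RefSeq start. The C1qc window (136892915 to 136893164) held the same motif 193 bases before its RefSeq start, and 23.3% of all windows held it. That start lies inside the C1qc span given above, which is from another annotation, so part of the window lies within that span.

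The chains kept nearly the same proportions in both groups. Of the summed C1q counts, which ranged from 484 to 1705 per library, C1qa made up 37.9% ± 1.23 (SD, n = 3) in CAAHR and 38.0% ± 2.32 in GFP muscles. C1qb made up 31.2% ± 4.57 and 30.3% ± 3.03, and C1qc 30.9% ± 4.13 and 31.7% ± 1.94. Each difference was smaller than the spread between libraries. CAAHR replicate 31 had the largest C1qb share, 36.3% (exact 95% binomial interval 32.5 to 40.2, counting error only), and the smallest C1qc share, 26.2% (22.8 to 29.8).

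Serping1, the inhibitor of C1r and C1s, did not pass the test. It was at 38.2, 39.9 and 42.3 CPM in GFP replicates 42, 43 and 46 and at 35.2, 17.6 and 35.5 CPM in CAAHR replicates 31, 34 and 36. CAAHR replicates 31 and 36 lay close under the GFP range, and replicate 34 lay far below both. The log2 fold change was -0.45 ± 0.25 (SE), with a 95% interval from -1.04 to 0.14 (edgeR, adjusted p 0.337). Without CAAHR replicate 34 it was -0.19. Serping1 lies on chromosome 2 from 84765387 to 84775444 (GRCm38, minus strand).

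C3ar1, the receptor for the C3 fragment, was at 0.767, 1.54 and 0.755 CPM in GFP replicates 42, 43 and 46 and at 0.791, 0.315 and 0.443 CPM in CAAHR replicates 31, 34 and 36. The groups overlapped, because CAAHR replicate 31 was above 2 of the GFP libraries. Its log2 fold change was -0.98 ± 0.43 (SE), with a 95% interval from -1.94 to -0.02 (edgeR, adjusted p 0.199), on between 18 and 64 counts per library. The gene is at chr6:122847138-122856161 (GRCm38, minus strand).

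Per length, the group means of the members had the same order in both groups. In CPM per kilobase of exon in GFP muscles, Serping1 was at 17.3 ± 0.891 (SD, n = 3), C3 at 11.6 ± 2.62, C1qa at 9.49 ± 4.18, C1qb at 7.61 ± 4.46, C1qc at 4.32 ± 2.13, C4b at 3.60 ± 0.309, C2 at 0.458 ± 0.0172, Cfb at 0.378 ± 0.0433 and C3ar1 at 0.237 ± 0.104. The ranges of neighbours overlapped from C3 through C4b and between Cfb and C3ar1, while Serping1 stood above C3 and C4b above C2. Within each GFP library C3 was above C1qa, C1qa above C1qb, C1qb above C1qc and Cfb above C3ar1, whereas C1qc and C4b changed places. In CAAHR muscles the same scale gave 12.6 ± 4.40 for Serping1, 4.26 ± 0.992 for C3 and 0.747 ± 0.299 for C4b. Dividing the same whole-gene CPM by only the exon bases that no other gene shares gave 0.863 for C2 and 1.84 for Cfb in GFP muscles. That would put Cfb above C2, but only if no read in shared exons was counted, which was not stated.

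Members differed in which libraries stood apart. CAAHR replicate 34 was the lowest of the 6 libraries for 9 of 9 members, as it was for 18.9% of all tested genes. GFP replicate 43 was the highest for 6 members, C1qa, C1qb, C1qc, C3, Cfb and C3ar1, and for 2482 of 15847 tested genes. C4b, C2 and Serping1 did not share that peak and had their highest value in GFP replicate 46.

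**Figure D3:**
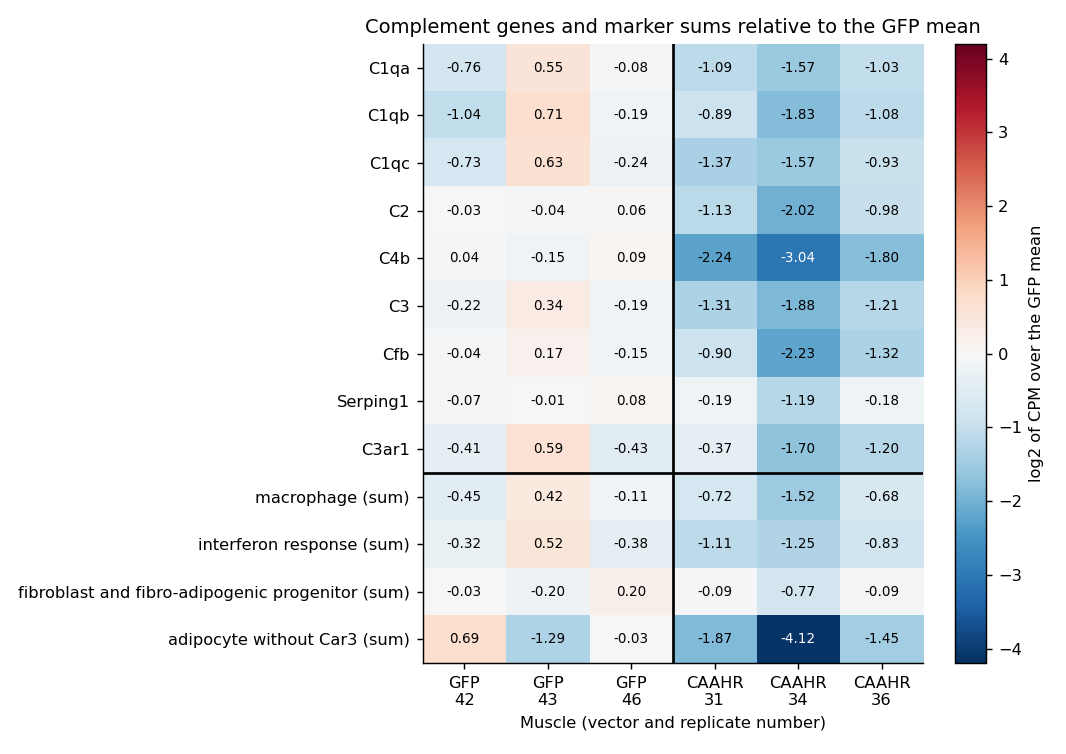
Log2 of each library's CPM over the GFP mean, for the 9 complement genes and for the summed CPM of 4 marker lists. Blue is below and red above the GFP mean. CAAHR replicate 34 holds the lowest value in every row, from -0.77 for the fibroblast sum to -4.12 for the adipocyte sum without Car3.

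Marker transcripts of other cell types were measured beside these genes. In whole muscle, fewer cells of a type and less RNA per cell cannot be told apart. Of 11 macrophage markers, none at 0 in all libraries, 9 were tested and 1 was called lower, Aif1, beside 4.57% of all tested genes. Groups overlapped for Csf1r, Cd163 and Mertk, and also for Timd4, which was not tested. The median log2 fold change was -0.76, and the 11 summed to between 22.5 and 40.4 CPM in CAAHR and between 47.4 and 86.5 CPM in GFP muscles.

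Summed C1q was 0.315, 0.376 and 0.325 of that macrophage sum in CAAHR replicates 31, 34 and 36 and 0.314, 0.474 and 0.394 of it in GFP replicates 42, 43 and 46. These ratios overlapped, with a difference of -0.20 in their mean log2 between CAAHR and GFP. The ratio depended on the markers summed, and the difference was -0.52 without Lyz2 and Cd68. The part of macrophage content in the C1q values was not tested.

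Of 10 interferon-response genes, 4 were called lower (Irf1, Ifit3, Cxcl9 and Cxcl10), beside 4.57% of all tested genes, and groups overlapped for Irf9 and Isg15. The list had a median log2 fold change of -1.19 and sums of 21.8 to 29.3 CPM in CAAHR against 39.9 to 74.3 CPM in GFP muscles. The B cell and plasma cell list had 4 of 7 called lower, including Ighm, with sums of 9.61 to 19.3 against 127 to 432 CPM, or 1.5 to 1.79 against 6.67 to 39.9 CPM without Ighm. Neutrophil sums were 2.15 to 3.10 against 6.26 to 15.5 CPM (3 of 4 tested genes called lower, Elane at 0 throughout), and T and NK cell sums 1.02 to 1.66 against 2.45 to 8.63 CPM (1 of 3 tested called lower). None of 10 fibroblast genes was called, and their median log2 fold change was -0.07. Their sum was 610 CPM in CAAHR replicate 34 and between 905 and 1198 CPM in the other 5 libraries. Endothelial genes had a median of 0.10 with none called. The part of any of these in the complement values was not tested.

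The rest of the complement system was examined through 48 further entries of the table, 2 of which are identifiers of Itgam. Of these 48, 27 were tested, 7 were called lower and none higher, beside 4.57% and 3.04% of all tested genes. The 7 were Cfd, C7, Clu, Cpn1, C5ar1, Itgax and Itgb2. The median log2 fold change of the 27 was -0.55, and 6 of the 7 changed more than 2-fold, with Clu as the exception. The count was 2 without CAAHR replicate 31 and 4 without CAAHR replicate 36 or without GFP replicate 46. C7 and Clu were called in each of the 14 alternatives.

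**Figure D4:**
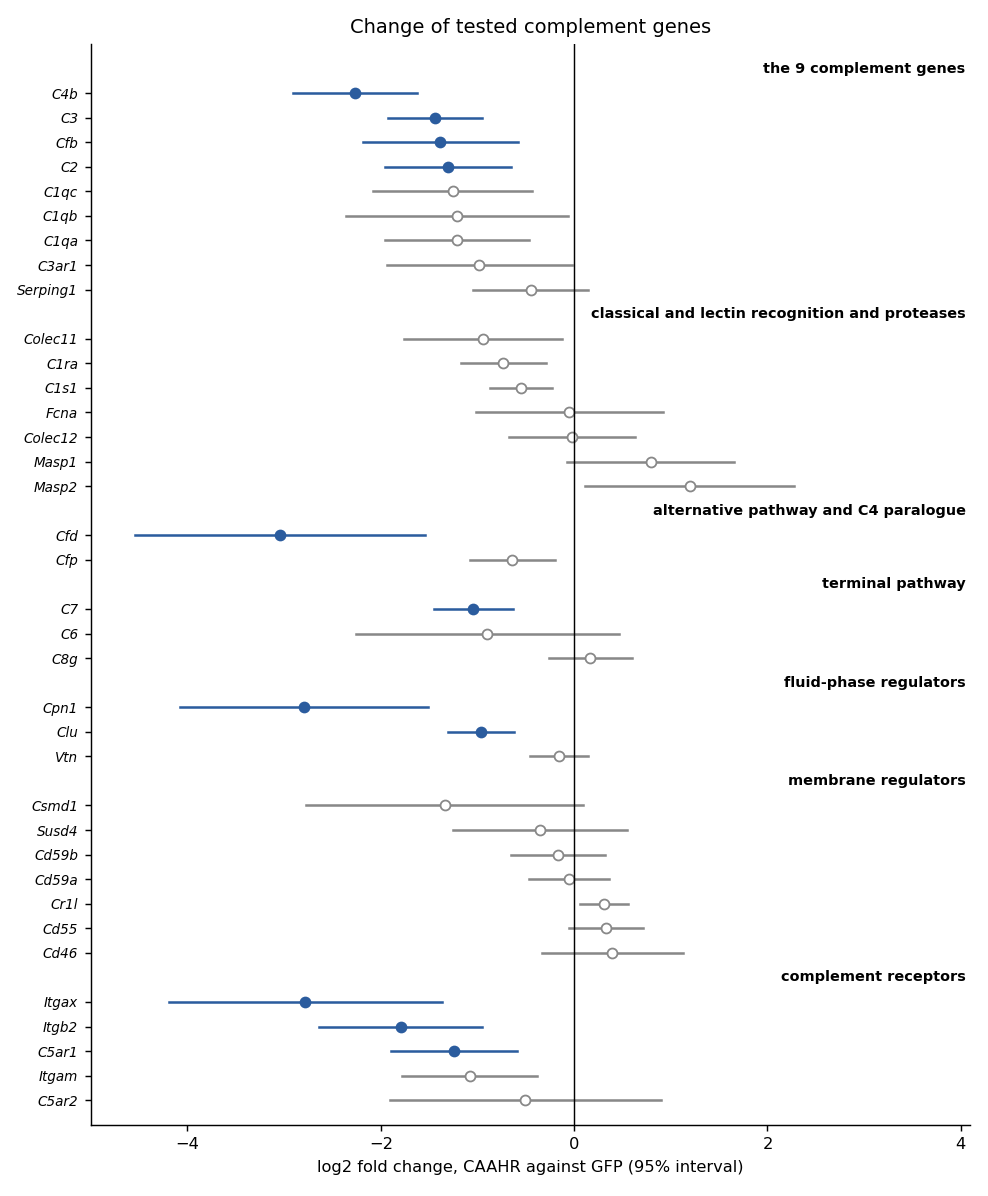
Log2 fold change of CAAHR against GFP with its 95% interval for the 9 members and the 27 other tested complement genes, by role. Filled blue points had an adjusted p under 0.05 and open grey points did not. All 11 filled points lie left of 0.

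C1r and C1s, the proteases bound to C1q, lay near the threshold. C1ra was at 4.53 ± 1.10 CPM (SD, n = 3) in CAAHR and 7.53 ± 0.978 CPM in GFP muscles, a log2 fold change of -0.73 ± 0.20 (edgeR, adjusted p 0.0514). C1s1 was at 16.1 ± 3.29 against 23.5 ± 0.459 CPM, a log2 fold change of -0.55 ± 0.14 (edgeR, adjusted p 0.0501). In both genes every CAAHR library was below every GFP library, as in 14.9% of tested genes. C1s1 passed in 6 of 14 alternatives, among them DESeq2 (adjusted p 0.00942) and the fit without CAAHR replicate 34 (edgeR, adjusted p 0.037). Its range over the alternatives was 0.000366 to 0.132. C1ra passed in 4 of 14, among them DESeq2 (adjusted p 0.00742), in a range of 0.000456 to 0.157. Their near copies C1rb and C1s2 had at most 7 counts in any library, so reads shared between copies leave some uncertainty.

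Among lectin pathway genes, none of those tested was called. Colec12, a scavenger receptor of the collectin family, was at 4.57 ± 1.86 CPM in CAAHR and 4.63 ± 0.436 CPM in GFP muscles. Masp1 and Masp2, proteases that bind mannose-binding lectin and ficolins, were at 2.12 ± 0.444 against 1.21 ± 0.685 CPM and at 0.330 ± 0.0741 against 0.146 ± 0.0835 CPM. For Masp2 every CAAHR library lay above every GFP library, as it did for 2377 of 15847 tested genes. Masp2 had only 4 to 21 counts per library. It shares 54.9% of its exon bases with annotation on the opposite strand. Whether libraries were stranded was not stated, so its values are uncertain. Mbl1, Mbl2, Fcnb and Colec10 had 0 counts in all 6 libraries, which allows at most 3 counts, or 0.0721 CPM in the shallowest library.

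Cfd, the protease that activates factor B and a major product of fat cells, was called lower. It was at 29.2, 19.0 and 37.1 CPM in GFP replicates 42, 43 and 46 and at 3.56, 1.21 and 5.54 CPM in CAAHR replicates 31, 34 and 36. The log2 fold change was -3.05 ± 0.59 (SE) (edgeR, adjusted p 0.046). Adipocyte transcripts without Car3, which muscle fibres also express, summed to 2.49 to 15.8 CPM in CAAHR and 17.6 to 69.6 CPM in GFP muscles. Among GFP libraries this sum was lowest in replicate 43, as Cfd was. Of these 5 genes 2 were called lower, Plin1 and Retn, beside 4.57% of all tested genes, and groups overlapped for Adipoq and Lep. Car3 was not called but was higher in every CAAHR library than in any GFP library. With Car3 the sum went the other way, at 1570 to 2020 CPM in CAAHR and 1336 to 1527 CPM in GFP muscles. The part of fat tissue in the Cfd values was not tested. Cfd lost its call without CAAHR replicate 31 (edgeR, adjusted p 0.126), CAAHR replicate 36 (0.0721), GFP replicate 42 (0.117), GFP replicate 43 (0.0992) or GFP replicate 46 (0.114), and also with no filter on low counts (0.0987), in a range of 5.2e-05 to 0.126. Properdin (Cfp), which stabilises the alternative convertase, was at 1.95 ± 0.403 against 3.04 ± 0.0970 CPM (edgeR, adjusted p 0.0779).

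In the terminal pathway, which builds the membrane pore, C7 was at 5.24 ± 1.30 CPM in CAAHR and 10.8 ± 1.03 CPM in GFP muscles. Its log2 fold change was -1.04 ± 0.18 (edgeR, adjusted p 0.00938). C8g was at 1.89 ± 0.168 CPM in CAAHR and 1.68 ± 0.108 CPM in GFP muscles and C6 at 0.154 ± 0.102 and 0.295 ± 0.177 CPM, neither called. Hc, which encodes C5, C8a, C8b and C9 had at most 3 counts in any library.

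Regulators were uneven. Clusterin (Clu), which binds the terminal complex, was at 21.6 ± 4.67 CPM in CAAHR and 42.2 ± 4.1 CPM in GFP muscles. Its log2 fold change was -0.97 ± 0.15 (edgeR, adjusted p 0.00625). Cpn1, a subunit of the carboxypeptidase that inactivates complement fragments, was at 0.0916 ± 0.0779 against 0.659 ± 0.259 CPM, a log2 fold change of -2.79 ± 0.57 (edgeR, adjusted p 0.0192). It rested on 3, 2 and 11 counts in CAAHR replicates 31, 34 and 36, and without replicate 36 the log2 fold change was -3.77. The Cpn1 call was lost without CAAHR replicate 31 (edgeR, adjusted p 0.0799) or GFP replicate 46 (0.0848), in a range of 3.82e-06 to 0.0848. Vitronectin (Vtn) was at 14.1 ± 1.58 against 15.7 ± 2.41 CPM and was not called.

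None of the 7 tested membrane regulators was called. Cd55, which speeds the decay of convertases, was at 57.6 ± 8.69 CPM in CAAHR and 46 ± 9.55 CPM in GFP muscles (edgeR, adjusted p 0.282). Cr1l, the rodent regulator also known as Crry, had means of 29.5 ± 0.647 CPM in CAAHR and 23.8 ± 3.06 CPM in GFP muscles. The difference of Cr1l was 0.31 on the log2 scale, with a 95% interval from 0.07 to 0.55 (edgeR, adjusted p 0.118). Cd59a, which blocks the membrane pore, was at 22.9 ± 3.82 against 23.8 ± 5.67 CPM, with an interval from -0.47 to 0.36.

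Of 5 tested receptor genes, 3 were called lower, beside 4.57% of all tested genes. C5ar1, a receptor for the C5 fragment, was at 0.719 ± 0.216 CPM in CAAHR and 1.72 ± 0.364 CPM in GFP muscles. Its log2 fold change was -1.25 ± 0.29 (edgeR, adjusted p 0.0317). The integrin chains Itgb2 and Itgax, shared and specific parts of complement receptors on leukocytes, had log2 fold changes of -1.79 ± 0.37 (edgeR, adjusted p 0.0229) and -2.78 ± 0.62 (edgeR, adjusted p 0.0316). Without GFP replicate 43 these were -1.27 for Itgb2 and -1.88 for Itgax. That library was highest for all 3 receptor genes, with Itgax at 2.69 CPM there and at 0.787 and 0.680 CPM in GFP replicates 42 and 46. C5ar1 lost its call without CAAHR replicate 31 (edgeR, adjusted p 0.102), GFP replicate 43 (0.100) or GFP replicate 46 (0.108), Itgb2 without CAAHR replicate 31 (0.0661) or 36 (0.0833), and Itgax without CAAHR replicate 31 (0.0679), 34 (0.070) or 36 (0.131). With limma-voom Itgb2 (adjusted p 0.0635) and Itgax (0.0928) did not pass either. Over the alternatives the ranges were 0.00114 to 0.108 for C5ar1, 3.05e-10 to 0.0833 for Itgb2 and 6.46e-10 to 0.131 for Itgax. The tested identifier of Itgam was at 0.617 ± 0.113 against 1.32 ± 0.422 CPM (edgeR, adjusted p 0.0656). It shares 68.7% of its exon bases with other annotated genes on its strand, and the second Itgam identifier, which was not tested, had 14, 1 and 16 counts in CAAHR and 0, 3 and 3 in GFP libraries, so reads may be split and the Itgam values are uncertain.

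Genes beside the members did not all share their direction. C2, Cfb and C4b lie in the class III region of the histocompatibility complex, within 169886 bases, and of 18 other tested genes there or within 100 kb on either side none was called, with a median log2 fold change of 0.12. Near C3, 1 of 4 tested neighbours was called lower, Vav1, a signalling protein of leukocytes, and the median was -0.79. Near C3ar1, 2 of 6 were called lower, Slc2a3 and Clec4a1, with a median of -1.002. Near Serping1, 2 of 11 were called higher, Tmx2 and Rtn4rl2, with a median of 0.26. Neither of the 2 tested neighbours of the C1q cluster was called, with a median of -0.28. Over all tested genes 4.57% were called lower and 3.04% higher. These neighbours were looked up after the values of the members were known.

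The transcripts closest in pattern were found by centring log2 CPM on each gene's own mean and taking the root mean square difference over the 6 libraries, among 8869 genes with a mean of at least 5 CPM. For the mean of the C1q chains they were Lyz2 (difference 0.15), the lysozyme gene of macrophages and other myeloid cells, Mt1 (0.20), a metallothionein, and Tnfsf10 (0.26), the death ligand TRAIL. For C3 they were Tmem176b (0.14), Mt1 (0.19) and Dapk1 (0.19), a death-associated kinase.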

How the data were processed

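Gene expression was measured by sequencing of poly(A)-selected RNA in 3 CAAHR and 3 GFP gastrocnemius libraries. The values deposited by the authors are whole-number counts. Per the methods and the submitters' processing notes, paired reads were trimmed with Trimmomatic 0.36, aligned to GRCm38 with STAR 2.5.2b, and unique reads in exons were summed per gene by featureCounts, with no normalisation and no pooling. Whether libraries were stranded was not stated. All rows carry a gene identifier, and the 174 rows with no symbol (0.0154% of counts) were kept.

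Counts were analysed with edgeR 4.0.16 in R 4.3.3 (filterByExpr, TMM, robust quasi-likelihood F test, Benjamini-Hochberg over all tested genes, threshold 0.05). A stricter call added a change of more than 2-fold. SE was derived from the F statistic. Calculations were checked on simulated data. Positions and exon overlaps came from GENCODE M21 (GRCm38), which held 99.3% of the identifiers, and upstream sequences from RefSeq. C1q shares have exact binomial intervals.

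Members and gene lists were chosen with earlier results of these data known. Named were all members, every other complement gene that passed, and up to 3 of the most abundant others per list. Alternatives covered scaling, filters, the test (DESeq2 1.42.0, limma-voom from limma 3.58.1, edgeR without robust estimation), the macrophage list and leaving out each library. 1 planned macrophage marker and 1 planned complement gene are not reported here; both lists were shortened by them after values were seen, and the macrophage sums and the C1q to macrophage ratio depend on this. Within groups, no pair of libraries was a duplicate: the lowest chi-square divided by its degrees of freedom was 15.5. Nothing in the labels says that libraries came from separate animals, so p-values measure the spread between these libraries. Depth limits genes with few counts, and floors cover counting error only.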

Additional observations from a re-analysis of the deposited data

How the results depend on the processing

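No paired analysis was possible because no replicate number occurs in both groups. All 9 members kept their direction in each of 14 alternatives. Of 126 checks of single members, 107 kept their side of the threshold, 11 lost a call and 8 gained one. The count of called members, 4 as reported, was 2 to 4 when libraries were left out in turn, both with and without the 2-fold requirement, and was 5 with upper quartile scaling or without robust estimation, 3 with library size only, 6 without a filter on low counts and 6 with DESeq2. The count of other complement genes, 7 as reported, was 11 without that filter, 11 by DESeq2 and 2 to 7 when libraries were left out. Over all tested genes 1205 were called, against 2470 when low counts were kept and 1923 by DESeq2, and 530 to 1727 when libraries were left out. The split of 724 lower and 481 higher became 990 and 358 with upper quartile scaling and 600 and 876 with library size only. The cause of these differences was not tested.

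The log2 ratio of summed C1q to summed macrophage markers differed by -0.20 between CAAHR and GFP. It was -0.52 without Lyz2 and Cd68, -0.13 with the mean of log2 CPM, and -0.35 to -0.058 when libraries were left out. Direction reversed for 4 other complement genes that were not called. With library size only and with limma-voom, log2 fold changes were 0.032 and 0.28 for Fcna, 0.068 and 0.0075 for Colec12 and 0.031 and 0.088 for Cd59a, against -0.048, -0.024 and -0.054 as reported. Leaving out libraries moved them between -0.33 and 0.47 for Fcna, -0.31 and 0.25 for Colec12, -0.18 and 0.16 for Cd59a and -0.96 and 0.26 for C5ar2, reported at -0.51.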
